A study of Mus musculus with 6 samples.

Results

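Cholesterol and fatty acid synthesis genes were followed by name through the arrays: the enzymes of the mevalonate and sterol branch, the sterol sensors, the core of fatty acid synthesis, the desaturases, the elongases, acyl-CoA synthetases and glycerolipid enzymes, the fatty acid binding proteins, the PPAR receptors and the sterol efflux transporters. All probe sets whose array annotation gave 1 of the 46 gene symbols were taken, whatever their signal. They were 82 probe sets of 42 genes, out of 12394 gene symbols on the array. Acat2, Acsl1, Acsl3 and Insig1 had no probe set under those symbols and were not analysed here.

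The cells were mesenchyme of the urogenital sinus, the fetal tissue that gives rise to the prostate, from male CD-1 mice at gestation day 17, in primary culture at first passage after the epithelium had been discarded. Every culture was kept in 690 pM dihydrotestosterone (DHT), an androgen, and had passed 3 days in estrogen-free medium. The 3 E2 samples then received 100 nM estradiol (E2) for 4 days, and the 3 control samples received the ethanol vehicle. One Affymetrix mouse expression array was hybridized per sample, and a probe set on it reports 1 fluorescence signal for the transcripts it matches. Nothing in the sources states that the 3 samples of a group came from separate cell preparations, so the p-values reflect only how these samples varied, and that variation may be technical. In RNA from a whole culture, fewer cells of a kind and less RNA per cell cannot be told apart.

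Signals below are in scaled units, except that the array medians and the ribosomal RNA signals are as deposited. For the scaling, each array was divided by its own median and brought back to a common level. Tested were probe sets whose deposited values averaged 10 units or more in either group, and each difference is the log2 signal with E2 minus that in control. The array medians ran from 13.7 to 21.8 units as deposited. Control replicate 3 and E2 replicate 2 stood apart in 18S ribosomal RNA, with 281 and 288 units on a control probe set that read 22.8 to 44.7 units elsewhere. The labelled cell type was borne out by its markers: all 8 mesenchyme genes, such as Col1a1 and Vim, passed the filter, and their summed signal was 12130 to 13950 in control and 11800 to 12670 with E2. Summed epithelial markers were 55.2 to 89.7 in control and 137 to 140 with E2, with Cdh1, Cldn4, Epcam and Krt5 under 10 units in both groups and 1 of 8, Krt18, called (adjusted p = 0.0416 from limma). Summed macrophage and leukocyte markers were 612 to 990 in control and 542 to 659 with E2. By brightest probe set, all 10 of these that were tested had a negative difference. None was called at an adjusted p under 0.05 by limma, and 2 had an unadjusted p under 0.05. Dimmer probe sets went both ways, with 0.90 and -0.18 for Csf1r, 0.68 for C1qb, and 0.12 and -0.45 for Laptm5. On the first Csf1r probe set of these, all E2 samples lay above all control samples (adjusted p = 0.587 from limma). Summed adipocyte markers were 32.9 to 53.8 in control and 30.9 to 47.4 with E2. Adipoq, Cidec, Lep, Lipe and Retn were under 10 units in both, and Cebpa averaged 18.4 in control and 10.5 with E2. Endothelial, glial and striated muscle markers each summed to 38.3 to 84.9 on every array, with Cdh5, Cldn5, Pecam1, Tek, Gfap, S100b, Sox10, Ckm, Myh3, Myod1 and Myog under 10 units. Kdr, Egfl7, Erbb3, Ngfr, Acta1 and Tnnc1 passed the filter, and so did Tnni1 from a control mean of 4.37 units.

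Cells build cholesterol from acetyl-CoA through mevalonate, the isoprenoids, squalene and lanosterol, and they build palmitate from the same acetyl-CoA through malonyl-CoA. Elongases then lengthen fatty acids and desaturases place double bonds in them, and acyl-CoA synthetases and acyltransferases put them into membrane and storage lipids. The SREBP transcription factors, held in the endoplasmic reticulum by Insig proteins and escorted out of it by Scap when sterols run low, bind short promoter sequences and drive most enzymes of both branches together. Fatty acid binding proteins carry the products in the cytosol.

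Few of these genes passed the test between the groups. At an adjusted p under 0.05 from limma, 3 of the 68 member probe sets tested were higher with E2, which are 2 genes of 39, Elovl5 and Mboat2. None of the 68 was lower at that threshold, and 2 were lower at an unadjusted p under 0.05. Over all 14223 probe sets tested, 70 or 0.492% were higher and 36 or 0.253% lower, and with the values as deposited 39 were higher and 7 lower. By the study's criterion of 1.5-fold and p at or under 0.05, applied here to limma's p before adjustment, 4 member probe sets were higher and 0 lower, against 2.06% and 1.88% of all probe sets. Those 4 were both Elovl5 probe sets, Mboat2 and Fabp7, the last of which passed the filter through its E2 mean alone. By p under 0.05 before adjustment, 6 were higher and 2 lower, against 3.44% and 4.55%. All 3 E2 arrays lay above all 3 control arrays in 10 member probe sets and below them in 5, against 5.72% and 8.49% of all probe sets. The former include 1 probe set each of Insig2 and Fabp7, and the latter 1 of Fabp4, that passed the filter only through the higher group. The median difference was 0.03 over the member probe sets and -0.04 over all probe sets. The other 14 member probe sets were under 10 units in both groups and were not tested. They left Acaca, Pparg and Ppara without a tested probe set, and 12 of the 21 genes with more than 1 tested probe set had differences of 1 sign.

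**Figure D1:**
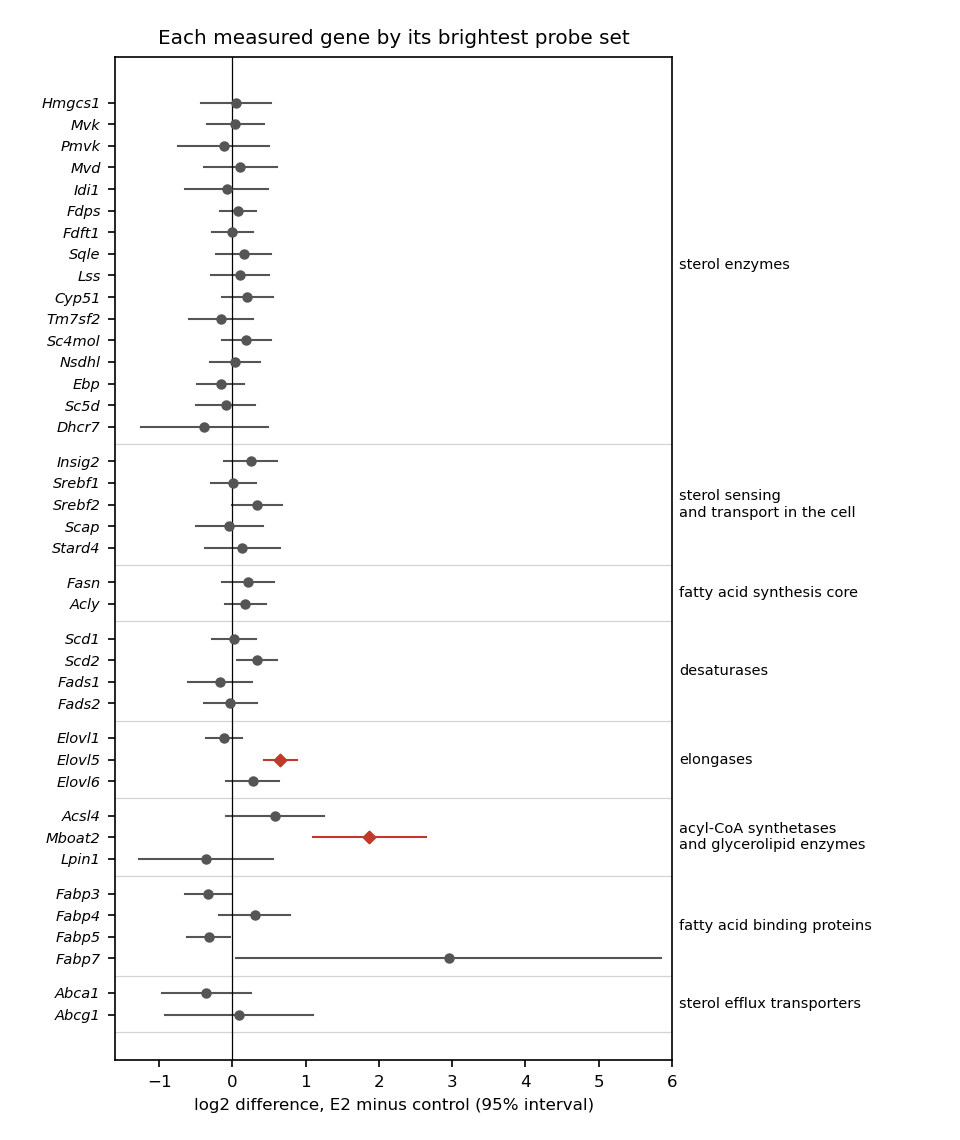
Log2 difference, E2 minus control, of the brightest tested probe set of each of 39 genes, grouped by role, with its 95% interval from limma; red diamonds have an adjusted p under 0.05. Elovl5 and Mboat2 stand to the right of zero, the sterol enzymes lie around zero, and Fabp7 has the widest interval.

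Short promoter windows from RefSeq (build GRCm38.p6), each of 250 bases before and 50 after an annotated transcript start, could be matched to 36 of the 46 genes. Both strands were searched for TCACNCCAC, a form of the sterol regulatory element that SREBPs bind, and for TCACNTGA, an E-box form that they also bind. The first was found in Acsl1 and Hmgcs1, 2 of 36 genes or 5.56%, against 1.44% of all 27025 genes and 1.24% of their 32851 promoter windows. The second was found in Fabp3 and Insig2, again 2 of 36, against 4.78% of all genes and 4.18% of windows. The matches of the 3 genes that were on the array are shown because SREBP control is what the sterol and fatty acid enzymes are known to share. They lie at chr13:119690194-119690242 on the plus strand for Hmgcs1, chr1:121327667-121327714 on the minus strand for Insig2 and chr4:130308672-130308719 on the plus strand for Fabp3. Each is written along the gene's strand with the matched letters in capitals, and a match on the opposite strand appears as its reverse complement.
Hmgcs1: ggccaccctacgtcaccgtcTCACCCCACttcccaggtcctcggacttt
Insig2: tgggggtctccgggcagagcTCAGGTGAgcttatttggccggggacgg
Fabp3: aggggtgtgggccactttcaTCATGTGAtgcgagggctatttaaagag
These are matches of letters, not measured binding sites. None of these 3 genes was called, as their values below show.

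The other promoter windows shown are those of the only 2 member genes called, Elovl5 at chr9:77917115-77917414 and Mboat2 at chr12:24831349-24831648, both on the plus strand and with the annotated first base of the transcript in capitals.
Elovl5: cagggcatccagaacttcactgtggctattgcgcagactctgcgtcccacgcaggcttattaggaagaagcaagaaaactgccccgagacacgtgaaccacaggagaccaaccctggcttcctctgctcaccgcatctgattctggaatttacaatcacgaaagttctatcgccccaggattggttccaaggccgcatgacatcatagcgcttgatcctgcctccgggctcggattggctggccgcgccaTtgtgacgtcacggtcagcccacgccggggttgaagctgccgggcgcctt
Mboat2: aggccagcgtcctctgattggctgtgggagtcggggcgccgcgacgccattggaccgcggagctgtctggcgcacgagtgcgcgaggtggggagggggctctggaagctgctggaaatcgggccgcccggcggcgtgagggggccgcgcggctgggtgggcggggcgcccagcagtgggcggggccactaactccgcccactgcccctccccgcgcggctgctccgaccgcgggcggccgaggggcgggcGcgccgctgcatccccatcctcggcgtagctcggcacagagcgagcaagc
Guanine and cytosine made up 57.7% of the Elovl5 window and 76.3% of the Mboat2 window, against a median of 52.7% and a 5th to 95th percentile range of 36.3% to 73.7% over all windows. Inverted copies of GGTCA 3 letters apart, the core of an estrogen response element, occurred in 0.07% of all windows, those of 0.074% of all genes, and in 0 of the 36 genes. Direct copies of AGGTCA 1 letter apart, the form that PPARs bind with their partner receptor, occurred in 0.0396% of all windows, those of 0.0481% of all genes, and also in 0 of the 36. No match says only that these letters are not in these windows.

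No shift of the sterol branch was detected in either direction. Of its 16 enzymes on the array all were tested, 24 of 31 probe sets passed the filter, and 0 were called by limma at an adjusted p under 0.05. None of the 16 genes reached an unadjusted p under 0.05, and in none did the groups separate. Of all 8257 genes tested, 298 were higher and 391 lower at that p from limma, and the groups separated upward in 496 and downward in 705. By the brightest probe set 9 of 16 differences were positive, against 3624 of all 8257 genes tested. The median of the 16 was 0.04, against -0.03 over all genes tested, and the 16 ran from -0.38 for Dhcr7 to 0.21 for Cyp51. The 95% interval of the difference lay within 2-fold in both directions for 15 of 16 enzymes and within 1.5-fold for 11. The same held for 6556 and 3823 of all 8257 genes tested.

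Hmgcs1, the synthase that commits acetyl units to the mevalonate pathway, read 434, 529 and 423 units in the control samples, in replicate order here and throughout, and 630, 292 and 579 with E2. Its difference was 0.04 (SE 0.22, adjusted p = 0.980 from limma), and the E2 samples lay on both sides of the control samples. Fdps, which makes farnesyl pyrophosphate, read 298, 280 and 312 units in control and 320, 309 and 306 with E2, and its difference of 0.07 had an interval of -0.18 to 0.32. Sqle, the squalene epoxidase, read 155, 130 and 155 units in control and 212, 130 and 155 with E2, a difference of 0.15 (SE 0.17). In Sqle only E2 replicate 1 stood apart from the control values. Cyp51, the lanosterol demethylase, read 106, 86.0 and 86.4 units in control and 89.1, 118 and 115 with E2, a difference of 0.21 (SE 0.16, adjusted p = 0.812 from limma). Dhcr7, which makes the last reduction to cholesterol, read 27.9, 21.2 and 16.6 units in control and 27.8, 8.24 and 19.3 with E2. Its difference of -0.38 had the widest interval among the brightest probe sets of the branch, -1.25 to 0.48, and E2 replicate 2 was the low sample. The remaining enzymes, Mvk, Pmvk, Mvd, Idi1, Fdft1, Lss, Tm7sf2, Sc4mol (Msmo1 in current naming), Nsdhl, Ebp and Sc5d, lay between -0.16 and 0.19 with adjusted p of 0.820 to 0.996 from limma.

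E2 replicate 2 gave the lowest signal of the 6 arrays in 9 of the 24 sterol enzyme probe sets (37.5%), against 34.9% of all probe sets tested, and in 7 of the 16 enzymes by brightest probe set. It is also 1 of the 2 arrays with the high 18S signal, and the part of that array in these values was not tested beyond leaving it out. The median of the branch relative to the control mean was 0.11, -0.19 and 0.09 in E2 replicates 1 to 3, against 0.02, -0.13 and 0.02 over all probe sets tested. With all 6 arrays the median difference was 0.04 for the branch and -0.04 over all probe sets. It was 0.12 against 0.0197 without E2 replicate 2, and 0.10 against 0.0245 with both high 18S arrays left out, so all probe sets moved up along with the branch.

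**Figure D2:**
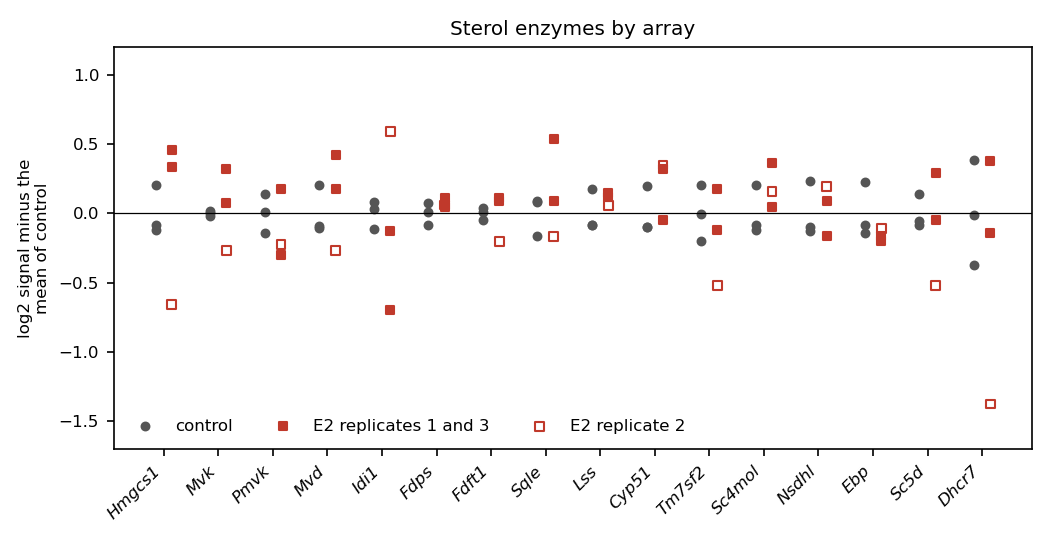
Log2 signal of each sterol enzyme on each array, minus that gene's control mean, by the brightest probe set. Open squares mark E2 replicate 2. Control and E2 arrays overlap in every sterol enzyme, and E2 replicate 2 is the lowest array in 7 of 16 of them.

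Of the sterol sensors, Srebf2, which encodes the SREBP that favors sterol genes, was by brightest probe set the 1 gene of 5 whose groups separated. It read 92.2, 103 and 76.2 units in control and 110, 104 and 126 with E2. The difference of 0.33 (SE 0.16) did not pass the test (adjusted p = 0.635 from limma), and a dimmer Srebf2 probe set gave -0.22 (SE 0.22). Srebf1, which encodes the SREBPs that favor fatty acid genes, read 126, 122 and 140 units in control and 133, 115 and 144 with E2, a difference of 0.01 with an interval of -0.30 to 0.32. Insig2 read 111, 95.9 and 102 units in control and 97.8, 153 and 121 with E2, a difference of 0.25 (SE 0.17). A second Insig2 probe set, which passed the filter through its E2 mean alone, read 6.003, 9.99 and 13.1 units in control and 13.4, 13.5 and 16.9 with E2, without overlap. It gave 0.65 (SE 0.43, adjusted p = 0.757 from limma) and the third gave 0.02 (SE 0.15), so none of the 3 carried a call. Scap and Stard4, a carrier of cholesterol between membranes, differed by -0.04 (SE 0.21) and 0.13 (SE 0.24).

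At the core of fatty acid synthesis, Acly and Fasn were slightly higher on average and neither was called. Acly, the lyase that supplies cytosolic acetyl-CoA, read 207, 256 and 216 units in control and 252, 239 and 272 with E2, a difference of 0.17 (SE 0.13, adjusted p = 0.797 from limma). Its other tested probe sets gave 0.09 (SE 0.13) and -0.13 (SE 0.15). Fasn, the fatty acid synthase, read 71.8, 77.6 and 75.4 units in control and 95.3, 70.7 and 97.2 with E2. The difference was 0.21 (SE 0.17, adjusted p = 0.809 from limma), with E2 replicate 2 below all control samples and the other two E2 samples above them. Acaca, the carboxylase that makes malonyl-CoA, read 13.0, 10.0 and 6.70 units in control and 10.2, 6.77 and 10.5 with E2. Its higher deposited mean of 9.99 units lay just under the filter, while Fabp7 at 10.6 and a second Sc5d probe set at 11.0 lay just inside it.

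Elovl5, the elongase that lengthens polyunsaturated fatty acids, rose with E2 on both of its probe sets. The brighter read 625, 577 and 632 units in control and 1030, 899 and 959 with E2, means of 611 ± 30.3 and 963 ± 65.7 units (SD, n = 3 each). The dimmer read 184, 172 and 160 units in control and 260, 239 and 325 with E2, means of 172 ± 11.8 and 275 ± 44.6 units (SD, n = 3 each). On both probe sets every E2 sample lay above every control sample. The differences were 0.65 (SE 0.11, interval 0.43 to 0.88, adjusted p = 0.00761 from limma) and 0.67 (SE 0.14, interval 0.36 to 0.97, adjusted p = 0.0446 from limma). The name of the brighter probe set ends in _x_at, which in Affymetrix naming marks probes that may also match other transcripts. The limma call of the brighter probe set was lost with the values as deposited (adjusted p = 1), without a variance trend (0.231), without E2 replicate 1 (0.0755) and without control replicate 2 (0.0519). That of the dimmer was lost as deposited (1), without a trend (0.320) and when any array other than E2 replicate 2 was left out (0.0983 to 0.220), all adjusted p from limma.

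The other elongases were not called. Elovl6, which lengthens palmitate to stearate, read 46.1, 50.9 and 49.4 units in control and 66.1, 54.9 and 56.9 with E2. All E2 samples lay above the control samples, but the difference of 0.28 (SE 0.17) had an adjusted p of 0.731 from limma, and a dimmer probe set gave 0.22 (SE 0.24) with overlapping groups. Elovl1, which makes very long saturated chains, read 480, 454 and 538 units in control and 426, 465 and 472 with E2. Its 3 probe sets gave -0.11 (SE 0.11), 0.03 (SE 0.12) and -0.10 (SE 0.14), and its groups overlapped on each.

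**Figure D3:**
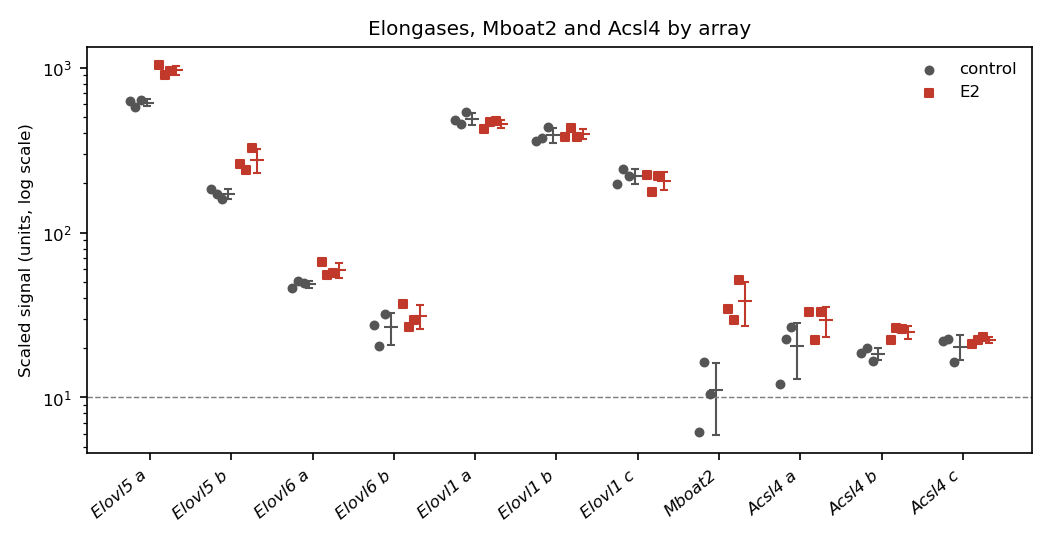
Signal in scaled units on a log axis of the tested probe sets of the elongases, Mboat2 and Acsl4 on each of the 3 control and 3 E2 arrays, with bars at the mean ± SD. Letters a, b and c are a gene's probe sets from brightest to dimmest, and the dashed line is 10 units. Both Elovl5 probe sets and Mboat2 have all E2 arrays above all control arrays.

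No desaturase was called. Scd2, a stearoyl-CoA desaturase that introduces the first double bond, came nearest. Its brightest probe set read 396, 388 and 360 units in control and 509, 407 and 532 with E2, so the groups separated, by a difference of 0.33 (SE 0.13, interval 0.06 to 0.60, adjusted p = 0.477 from limma). The second read 154, 219 and 176 units in control and 286, 214 and 251 with E2, a difference of 0.46 (SE 0.16, adjusted p = 0.381 from limma) with control replicate 2 above E2 replicate 2. The third gave -0.12 (SE 0.17), so the Scd2 probe sets disagreed in sign. Scd1, a desaturase of the same family, read 132, 117 and 133 units in control and 121, 131 and 136 with E2, a difference of 0.02 with an interval of -0.27 to 0.32. A dim Scd1 probe set gave -0.64 (SE 0.49), and E2 replicate 2, at 4.59 units, was its low sample.

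Fads1 and Fads2, the front-end desaturases of polyunsaturated fatty acids, act in the same route as Elovl5. Fads1 read 126, 132 and 129 units in control and 164, 81.7 and 114 with E2, a difference of -0.16 (SE 0.20, adjusted p = 0.899 from limma). Fads2 read 94.8, 83.8 and 98.5 units in control and 113, 77.8 and 84.4 with E2, a difference of -0.03 (SE 0.17). On the dimmer Fads2 probe set all E2 samples lay below all control samples, at 50.2, 60.3 and 43.8 against 62.0, 68.4 and 65.6 units, but the difference of -0.36 (SE 0.18) was not called (adjusted p = 0.649 from limma). The interval of the brighter Fads2 probe set, -0.39 to 0.34, does not reach the 0.43 at which the interval of the brighter Elovl5 probe set begins, though the difference between these genes was not tested.

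Mboat2, an acyltransferase that esterifies lysophospholipids, had the largest difference of the called members. It read 6.22, 16.4 and 10.5 units in control and 34.5, 29.5 and 51.4 with E2, means of 11.0 ± 5.10 and 38.5 ± 11.5 units (SD, n = 3 each). The lowest E2 sample lay above the highest control sample, and the difference was 1.87 (SE 0.36, interval 1.10 to 2.64, adjusted p = 0.0247 from limma). The control level lay near the filter of 10 units, where the log2 scale spreads small differences in signal. The call held with the values as deposited, and was lost without a variance trend (adjusted p = 0.229), without E2 replicate 1 (0.0984) or 3 (0.170) and without control replicate 1 (0.0680) or 3 (0.107), all from limma. The summed signal of the epithelial markers given above was also higher in all 3 E2 samples than in the control samples. So was Krt18, and so were Krt8, Krt14 and Krt19 from control means under 10 units, by their brightest probe sets. Cdh1, Cldn4, Epcam and Krt5, under 10 units in both groups, overlapped. The part of these markers in the Elovl5 and Mboat2 values was not tested.

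Acsl4, an acyl-CoA synthetase that prefers arachidonate, had positive differences on all 3 probe sets, 0.58 (SE 0.31), 0.43 (SE 0.25) and 0.14 (SE 0.26), with adjusted p of 0.691 to 0.938 from limma. The second of these read 18.7, 19.9 and 16.7 units in control and 22.2, 26.4 and 26.0 with E2, with no overlap. Lpin1, a phosphatidate phosphatase, read 28.8, 8.44 and 20.5 units in control and 14.6, 14.7 and 11.1 with E2, a difference of -0.36 (SE 0.43). Control replicates alone spanned more than the difference between the Lpin1 means.

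No fatty acid binding protein was called by limma at an adjusted p under 0.05. Before adjustment 2, Fabp3 and Fabp5, were below control at p under 0.05, and 1, Fabp7, was above it after passing the filter through its E2 mean alone. Fabp5 read 271, 326 and 273 units in control and 226, 203 and 267 with E2, and Fabp3 read 151, 142 and 183 units in control and 126, 116 and 135 with E2. Both had every E2 sample below every control sample. Their differences were -0.33 (SE 0.14, interval -0.62 to -0.03, adjusted p = 0.582 from limma) and -0.33 (SE 0.15, interval -0.64 to -0.02, adjusted p = 0.596 from limma). A second Fabp5 probe set gave -0.28 (SE 0.15), also without overlap. By their brightest probe sets, the macrophage and leukocyte markers given above were lower on average with E2 in the same samples. Their part in the Fabp5 and Fabp3 values was not tested.

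Fabp4, the binding protein of adipocytes and macrophages, read 26.4, 23.1 and 28.5 units in control and 28.8, 29.2 and 38.8 with E2 on its brightest probe set. That difference was 0.31 (SE 0.23, adjusted p = 0.795 from limma), and a probe set that passed the filter through its control mean alone gave -0.73 (SE 0.53, adjusted p = 0.788 from limma). The filter itself favors a lower E2 value on that second probe set, so no disagreement is read from it. Fabp7, the brain-type binding protein of glia, read 5.39, 0.604 and 0.660 units in control and 10.5, 8.89 and 10.6 with E2. Every E2 sample was higher, but all control samples lay under 10 units, the probe set passed the filter only through its E2 mean, and that mean was 10.0, so no fold is given. Its fitted difference of 2.95 (SE 1.35, adjusted p = 0.624 from limma) became 0.05 when values were floored at 10 units. The study lists Fabp7 among genes altered by E2 at every dose it used, including the dose of these arrays. The direction of Fabp7 here is therefore not independent of that listing. The study also reports Fabp7 as higher at its lower E2 doses, whose samples are not among those analysed here. Among glial markers Gfap, S100b and Sox10 were under 10 units in both groups. Ngfr and Erbb3 passed the filter, at means of 19.1 and 11.7 units in control and 23.6 and 12.2 with E2.

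**Figure D4:**
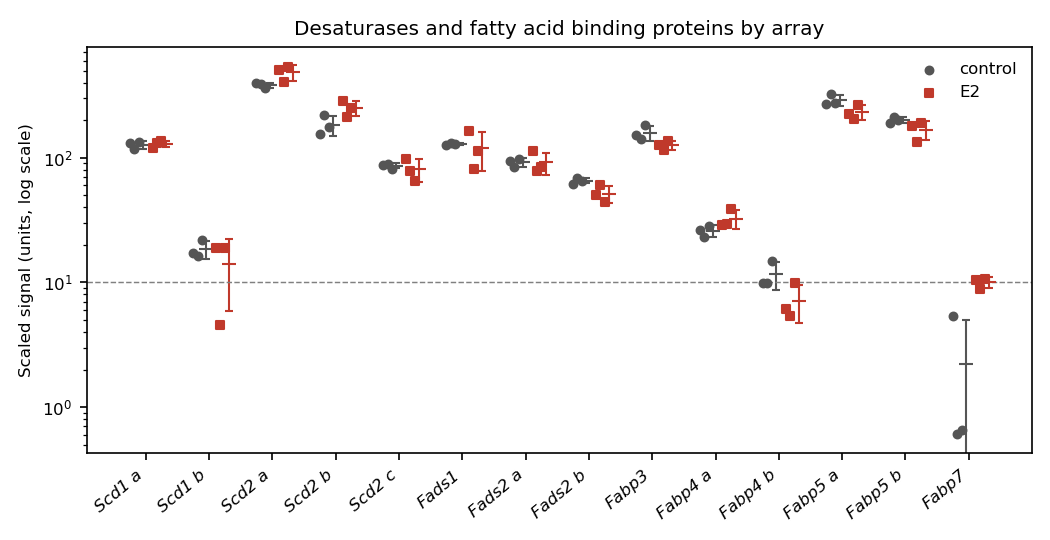
Signal in scaled units on a log axis of the tested probe sets of the desaturases and fatty acid binding proteins on each control and E2 array, with bars at the mean ± SD of 3 arrays, letters from the brightest to the dimmest probe set and a dashed line at 10 units; the lower SD bar of Fabp7 in control runs off the axis. The brightest Scd2 probe set separates upward and Fabp3 and Fabp5 separate downward, with adjusted p of 0.477 to 0.596.

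Of the nuclear receptors that respond to fatty acids, Pparg read 4.11, 6.53 and 7.46 units in control and 5.68, 1.12 and 12.8 with E2, and Ppara read 2.61, 1.11 and 9.86 units in control and 2.09, 0.511 and 0.530 with E2. Both were under 10 units on average in both groups and were not tested. Abca1, which exports cholesterol to lipoprotein particles, read 78.4, 96.5 and 52.3 units in control and 87.5, 59.5 and 36.3 with E2. Its difference was -0.36 (SE 0.28, adjusted p = 0.816 from limma), and all 3 Abca1 probe sets were negative, from -0.37 to -0.18, with overlapping groups. Abcg1, a related exporter, read 6.36, 13.8 and 15.5 units in control and 17.4, 9.76 and 9.69 with E2, a difference of 0.09 (SE 0.47) whose interval of -0.92 to 1.10 leaves its direction undetermined.

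Side by side, the median difference by gene was 0.04 for 16 sterol enzymes, -0.0036 for 4 desaturases, 0.28 for 3 elongases and -0.01 for 4 fatty acid binding proteins, against -0.03 over all genes. The elongase median is the value of Elovl6, the middle gene of 3, and only Elovl5 of the 3 was called. The binding protein median counts Fabp7, which passed the filter through its E2 mean alone. It was -0.33 with a filter at 100 units, which keeps only Fabp3 and Fabp5. Averaging a gene's probe sets in place of taking the brightest turned the medians to -0.18 for the desaturases and -0.26 for the binding proteins. It left 0.03 for the sterol enzymes and 0.25 for the elongases. The -0.26 also counts the Fabp4 probe set that passed the filter through its control mean alone, so neither binding protein median is read as a shift.

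**Figure D5:**
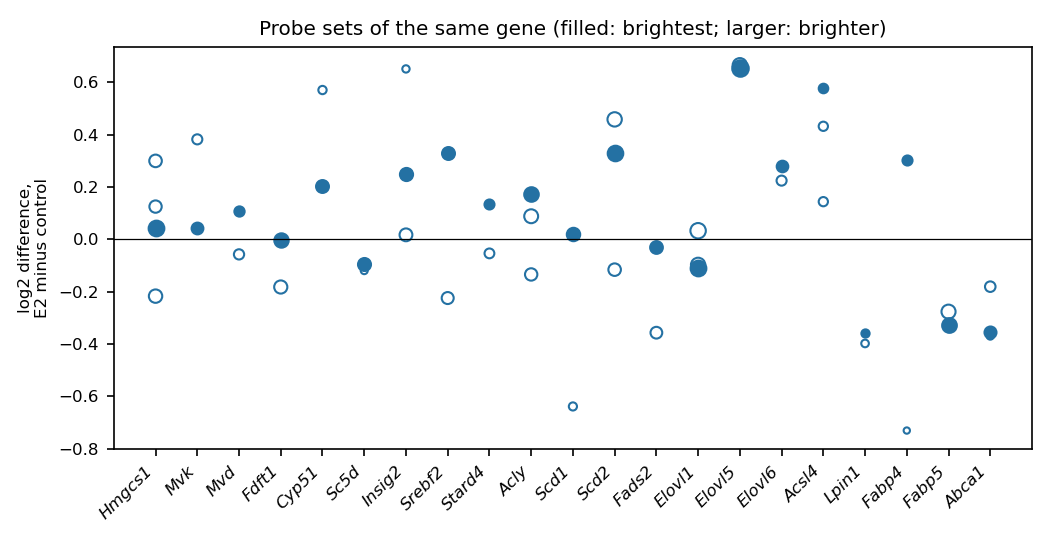
Log2 difference, E2 minus control, of every tested probe set of the members with more than 1 tested probe set; filled points are the brightest probe set of a gene, and larger points are brighter. The Elovl5 probe sets nearly coincide at 0.65 and 0.67, while those of Scd2 and Srebf2 fall on both sides of zero.

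Other genes of the same pathways were read from wider lists of named genes, each gene by its brightest probe set unless another is named. Of 24 further sterol genes, 18 were tested and 0 were called by limma, with 2 lower and 0 higher at p under 0.05 before adjustment. Those of smallest p were Pltp, the phospholipid transfer protein, at -0.72 (adjusted p = 0.122 from limma), and Hsd17b7, a sterol ketone reductase, at -0.65 (adjusted p = 0.618), though a dimmer Hsd17b7 probe set gave 0.03. Of 21 further genes of fatty acid synthesis and elongation, 12 were tested and 0 were called by limma, with 0 at an unadjusted p under 0.05, and Acss2, the cytosolic acetyl-CoA synthetase, and Hacd2, a dehydratase of the elongation cycle, stood at -0.28 and -0.11 (adjusted p = 0.864 and 0.892). Of 17 glycerolipid and lipid droplet genes, 12 were tested and 0 were called by limma, with 1 at an unadjusted p under 0.05, Gpam, the first acyltransferase of glycerolipid synthesis, at 0.55 (adjusted p = 0.268). A dimmer Gpam probe set read 10.9, 10.5 and 10.7 units in control and 20.4, 34.1 and 20.7 with E2, a difference of 1.18 (SE 0.32, adjusted p = 0.168 from limma). Neither Gpam probe set was called, and on both every E2 sample lay above every control sample. Next by p was Pnpla2, the adipose triglyceride lipase, at -0.35 (adjusted p = 0.711 from limma). Of 23 genes of fatty acid uptake and oxidation, 18 were tested and 1 was called higher by limma, Lpl, the lipoprotein lipase that frees fatty acids for uptake, at 2.47 (adjusted p = 1.28e-06). Hadh, a dehydrogenase of fatty acid oxidation, followed at -0.25 (adjusted p = 0.632 from limma).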

How the data were processed

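Total RNA from 3 control and 3 E2 samples was hybridized to Affymetrix mouse expression arrays, and groups and replicate numbers came from the sample labels. The deposited intensity values are linear, 1 per probe set and array, and were made by the authors with Gene Expression Console and GeneChip Operating Software. How signal was summarized, corrected for background and scaled is not given in the sources used here. Each array was divided by its median over the non-control probe sets and multiplied by the geometric mean of the medians. Of 22690 probe sets, 64 array controls were left out and 14223 whose deposited values averaged 10 units or more in either group were tested. In R 4.3.3, limma 3.58.1 (lmFit, eBayes with a variance trend) compared E2 with control on log2 values, two-sided, with Benjamini-Hochberg adjustment over all probe sets tested and a threshold of 0.05. The fit was tested on simulated data.

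Symbols came from the platform annotation: 20393 probe sets had 1 symbol, 691 several and 1606 none here, and only those with 1 were named. A gene is given by its probe set of highest mean log2 value. Intervals are 95% from limma. Members called, members with an unadjusted p under 0.05 and no overlap of the groups, all tested elongases, desaturases, binding proteins and core genes, the extremes of each role group, and in each other list those called and up to 2 of smallest p were to be named; further members were added to show each role. The members and lists were chosen with earlier results of these data known. Promoter windows are those of RefSeq for GRCm38.p6 and motif matches are letter matches. No protein sequences were used. The number of arrays limits the precision. Alternatives were quantile normalization, no scaling, log2(value + 16), values floored at 10 units, a filter at 100 units or none, no variance trend, array weights, a replicate block, averaging the probe sets of each gene, both arrays of high 18S signal left out and each array left out in turn.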

Additional observations from a re-analysis of the deposited data

How the results depend on the processing

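Calls are at an adjusted p under 0.05 from limma unless the 1.5-fold rule is named. Of the whole array, 70 probe sets higher and 36 lower became 39 and 7 as deposited, 15 and 1 without a variance trend, 112 and 70 with array weights, and 37 to 75 and 11 to 31 when each array was left out in turn; a filter at 100 units left 41 higher. By the 1.5-fold rule, 293 higher and 267 lower became 119 and 79 with log2(value + 16), 495 and 409 without a filter, and 48 and 46 with a filter at 100 units, and the lower count was 145 as deposited and 237 to 434 with an array left out. The 3 member probe sets called higher became 1 as deposited, 0 without a trend and 0 to 3 with an array left out, and the 2 member genes became 1, 0 and 0 to 2, or 1 with a filter at 100 units, which drops Mboat2. That filter left 2 member probe sets and 1 gene higher by the 1.5-fold rule, and 1 member probe set was lower by it without a filter or without a trend. With an array left out, 0 to 1 probe sets and 0 to 1 genes were lower by it. The desaturase median became -0.18 with a mean over the probe sets of a gene. The median of the fatty acid binding proteins became -0.33 with a filter at 100 units and -0.26 with a mean over probe sets, and ran from -0.39 to 0.076 with an array left out.

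Some differences of uncalled genes changed sign. With both arrays of high 18S signal left out they were 0.081 for Fads1, 0.13 for Fads2, 0.10 for Fdft1, -0.088 for Nsdhl, 0.0043 for Pmvk, 0.079 for Sc5d and 0.13 for Tm7sf2. With array weights they were 0.053 for Fads2, 0.051 for Fdft1, -0.043 for Nsdhl and 0.012 for Sc5d. For Fads2 and Fdft1 they were 0.016 and 0.042 by quantile normalization and 0.034 and 0.057 as deposited. Leaving out each array in turn gave ranges of -0.76 to 0.12 for Dhcr7, -0.42 to 0.083 for Fads1, -0.19 to 0.081 for Fads2, -0.060 to 0.10 for Fdft1, -0.16 to 0.39 for Hmgcs1, -0.41 to 0.23 for Idi1 and -0.87 to 0.018 for Lpin1. They were -0.048 to 0.30 for Mvd, -0.096 to 0.20 for Mvk, -0.038 to 0.16 for Nsdhl, -0.29 to 0.12 for Sc5d, -0.042 to 0.069 for Scd1, -0.040 to 0.31 for Sqle and -0.32 to 0.026 for Tm7sf2. The cause of these changes was not tested.

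Samples of the same replicate number did not deviate together (correlations of 0.0078, -0.053 and -0.0583). With so few arrays this cannot exclude a pairing, and the labels do not state one. With the replicate block 61 probe sets were higher and 27 lower over the array, 2 member probe sets were called higher, and the dimmer Elovl5 probe set had an adjusted p of 0.102 from limma. Few arrays and signal near 10 units limit what could be detected for Mboat2, Fabp7, Pparg, Ppara and Acaca.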
